A study of Mus musculus with 9 samples.

Results

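Semaphorins, plexins, Eph receptors and ephrins, the large families of axon guidance genes, were followed in the mouse brain 24 h after a transient middle cerebral artery occlusion. Members were all genes that the arrays' RefSeq accessions named as Sema with a number and letter, Plxn, Epha, Ephb, Efna or Efnb. This gave 51 genes of 30837 items tested, namely 20 semaphorins, 9 plexins, 14 Eph receptors (9 EphA and 5 EphB) and 8 ephrins (5 ephrin-A and 3 ephrin-B). They were read by 65 probes, and the probe used for each member was well above background on all 9 arrays, so no member was lost to the filter on dim probes. Of the 30837 items, 17589 carry a gene symbol from RefSeq, and the others go by the array's own gene name or the probe name. Shares of all genes given below are taken over all these items.

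The animals were adult male C57BL/6 mice, 50 to 53 days old, in 3 groups of 3. Sham animals underwent sham surgery, and the labels name no injection for them. In MCAO mice the middle cerebral artery was blocked for 90 min, and vehicle (1 µl of phosphate-buffered saline) was injected into the lateral ventricle of the right side at 3 h of reperfusion. In VEGF mice the artery was likewise blocked for 90 min, and the injection, at that same time and place, held recombinant human VEGF-A165 (10 µg/ml) in 1 µl. Brains were collected at 24 h of reperfusion, 21 h from the injection. Since no injection is named for sham, occlusion and injection cannot be told apart in comparisons with sham. Per the labels RNA came from homogenised brains, and neither the part of the brain nor the side is stated, so tissue from inside and outside the ischaemic territory may be mixed.

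Semaphorins are secreted or membrane-bound cues that act mostly through plexins, and most class 3 semaphorins need a neuropilin as a co-receptor. Ephrins are held at the cell surface, ephrin-A ligands by a lipid anchor and ephrin-B ligands by a transmembrane segment, and they signal through Eph receptor tyrosine kinases on a touching cell, with signals back into the ephrin-bearing cell. In the adult brain these genes are read in neurons, glia and vessels, and neuropilins also bind VEGF-A, which links the semaphorin system to the growth factor given here.

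The promoters of 5 members are shown because these genes mark both directions seen after occlusion. Epha1, Epha2 and Efna1 lie on the high side and Epha3 and Plxnc1 on the low side. Each window runs 5′ to 3′ on the gene's strand, from 250 bases before to 50 bases after a transcription start in RefSeq (GRCm38.p6). They lie at chr6:42373219-42373518 (minus strand, Epha1), chr4:141300971-141301270 (plus strand, Epha2), chr3:89280902-89281201 (minus strand, Efna1, the outer of its starts in the table), chr16:63864126-63864425 (minus strand, Epha3) and chr10:94944796-94945095 (minus strand, Plxnc1). Capitals mark matches, on either strand, to GGGCGG (the GC box) or TTCNNNGAA (a STAT-type motif).
Epha1: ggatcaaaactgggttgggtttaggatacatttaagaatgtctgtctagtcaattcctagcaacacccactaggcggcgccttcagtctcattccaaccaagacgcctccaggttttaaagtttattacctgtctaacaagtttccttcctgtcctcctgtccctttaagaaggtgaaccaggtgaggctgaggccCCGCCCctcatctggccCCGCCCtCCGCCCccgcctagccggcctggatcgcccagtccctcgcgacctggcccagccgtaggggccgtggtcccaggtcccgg
Epha2: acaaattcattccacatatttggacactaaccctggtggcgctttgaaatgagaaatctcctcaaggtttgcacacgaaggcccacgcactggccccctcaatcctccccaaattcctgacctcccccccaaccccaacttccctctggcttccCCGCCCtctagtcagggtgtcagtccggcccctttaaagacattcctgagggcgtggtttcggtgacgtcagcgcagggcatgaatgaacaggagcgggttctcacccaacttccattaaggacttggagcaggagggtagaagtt
Efna1: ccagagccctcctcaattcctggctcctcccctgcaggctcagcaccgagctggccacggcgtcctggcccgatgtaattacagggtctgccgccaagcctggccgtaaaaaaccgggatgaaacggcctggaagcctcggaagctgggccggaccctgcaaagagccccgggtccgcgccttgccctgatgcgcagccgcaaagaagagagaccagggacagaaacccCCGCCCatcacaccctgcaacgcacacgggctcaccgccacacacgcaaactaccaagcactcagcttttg
Epha3: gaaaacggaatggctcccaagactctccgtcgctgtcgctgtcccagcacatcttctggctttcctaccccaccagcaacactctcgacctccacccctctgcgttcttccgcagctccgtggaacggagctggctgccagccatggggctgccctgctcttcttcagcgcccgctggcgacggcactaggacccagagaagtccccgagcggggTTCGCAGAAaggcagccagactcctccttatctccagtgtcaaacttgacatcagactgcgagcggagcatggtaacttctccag
Plxnc1: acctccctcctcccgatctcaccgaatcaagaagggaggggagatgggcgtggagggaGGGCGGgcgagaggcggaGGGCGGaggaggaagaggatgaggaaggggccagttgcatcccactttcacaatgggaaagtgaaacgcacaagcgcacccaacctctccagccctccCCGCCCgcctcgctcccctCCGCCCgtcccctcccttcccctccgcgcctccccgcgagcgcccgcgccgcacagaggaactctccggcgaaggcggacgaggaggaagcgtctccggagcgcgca
No match to TGANTCA (AP-1) or ACGTG (the hypoxia response core) was found in these 5 windows, and the motifs searched do not overlap one another there. The GC box was matched 3 times for Epha1, 1 time each for Epha2 and Efna1, 4 times for Plxnc1 and not for Epha3, whose window held 1 STAT-type match. Another Efna1 window, not printed, held 2 GC boxes. The Epha1 and Plxnc1 windows do not lie at the outermost start of the gene. Over all 32851 windows of the table, 35.7% held GGGCGG, 8.3% TTCNNNGAA, 7.81% TGANTCA and 19.6% ACGTG. A promoter entry was found for 45 of the 51 members, with 59 windows in all, of which 74.6% held GGGCGG, 5.08% TTCNNNGAA, 5.08% TGANTCA and 20.3% ACGTG. The 5 printed windows held 10 (Epha2), 14 (Epha1), 18 (Epha3), 20 (Efna1) and 30 (Plxnc1) CpG pairs, against a median of 7 over all windows. A match is a run of letters only, and no binding or methylation was measured here.

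On an array, 73.0% to 81.8% of the non-control spots gave a signal well above background, and the 75th percentile of the signal ranged from 848 to 2070. Levels are log2 of the processed intensity relative to that percentile of the same array, so they compare arrays for 1 probe and not probes with each other. MCAO array 1 and VEGF array 1 stood apart from the other 4 ischaemic arrays, with the lowest percentile signals of the 9 (923 and 848). The sham arrays shared 1 slide and the 6 ischaemic arrays a different one, so slide and surgery cannot be told apart, and the scan of MCAO array 1 was made on a different day from the others. The 13 neuron markers were well above background on every array. Their median, relative to sham, stood at -2.43 (MCAO array 1) and -2.46 (VEGF array 1), while the remaining 4 ischaemic arrays had -0.84 to -0.39. Endothelial markers had medians of 2.01 and 2.63 on that pair against 0.42 to 0.67, and markers of infiltrating myeloid cells 7.42 and 7.03 against 4.77 to 6.37. Fewer cells of a type and less RNA per cell cannot be told apart in RNA of whole tissue.

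After occlusion more guidance genes lay below sham than above it, and Epha2, Efna1, Ephb4, Sema3g and Epha1 had the largest positive differences. In MCAO against sham, 35 of 51 members (68.6%) were below 0, where 53.2% of all genes were, and 16 above, with a median difference of -0.48 log2 units against -0.04 over all genes tested. Differences ran from -2.40 for Epha6 to 2.98 for Epha2. Only 1 member passed the test after adjustment over all 30837 items, Epha1, which was higher. Over all genes 2.81% passed, 2.28% as higher. At an unadjusted p under 0.05 there were 20 members (39.2%), against 21.4% of all genes. Leaving out a single array gave 7 passing members without VEGF array 1 (where 8.38% of all genes passed), 2 without MCAO array 1 (3.82%) or VEGF array 2 (2.49%), 1 without VEGF array 3 (2.81%), and 0 without any of the others (0.616% to 1.7%). The 3 MCAO arrays all lay above the 3 sham arrays in 9 members, where 19.6% of all genes did, and all below in 19 members (37.3%), where 20.7% of all genes did.

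More members also lay below sham than above it in VEGF against sham, a comparison that shares the sham arrays. There 37 members (72.5%) were below 0, where 57.6% of all genes were, and 14 above. The median was -0.33 against -0.12 over all genes. No member passed limma's adjusted test, where 2.43% of all genes did, 2.07% as higher. At an unadjusted p under 0.05 there were 14 members (27.5%), against 23.5% of all genes. Without MCAO array 1 there were 9 passing members (where 10.6% of all genes passed) and without VEGF array 2 there was 1 (2.42%). Groups did not overlap for 12 higher members (23.5%), against 18.2% of all genes, and for 14 lower members (27.5%), against 23.9%. The share of lower members without overlap, and the share under 0.05, lay nearer to those of all genes than in MCAO.

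**Figure D1:**
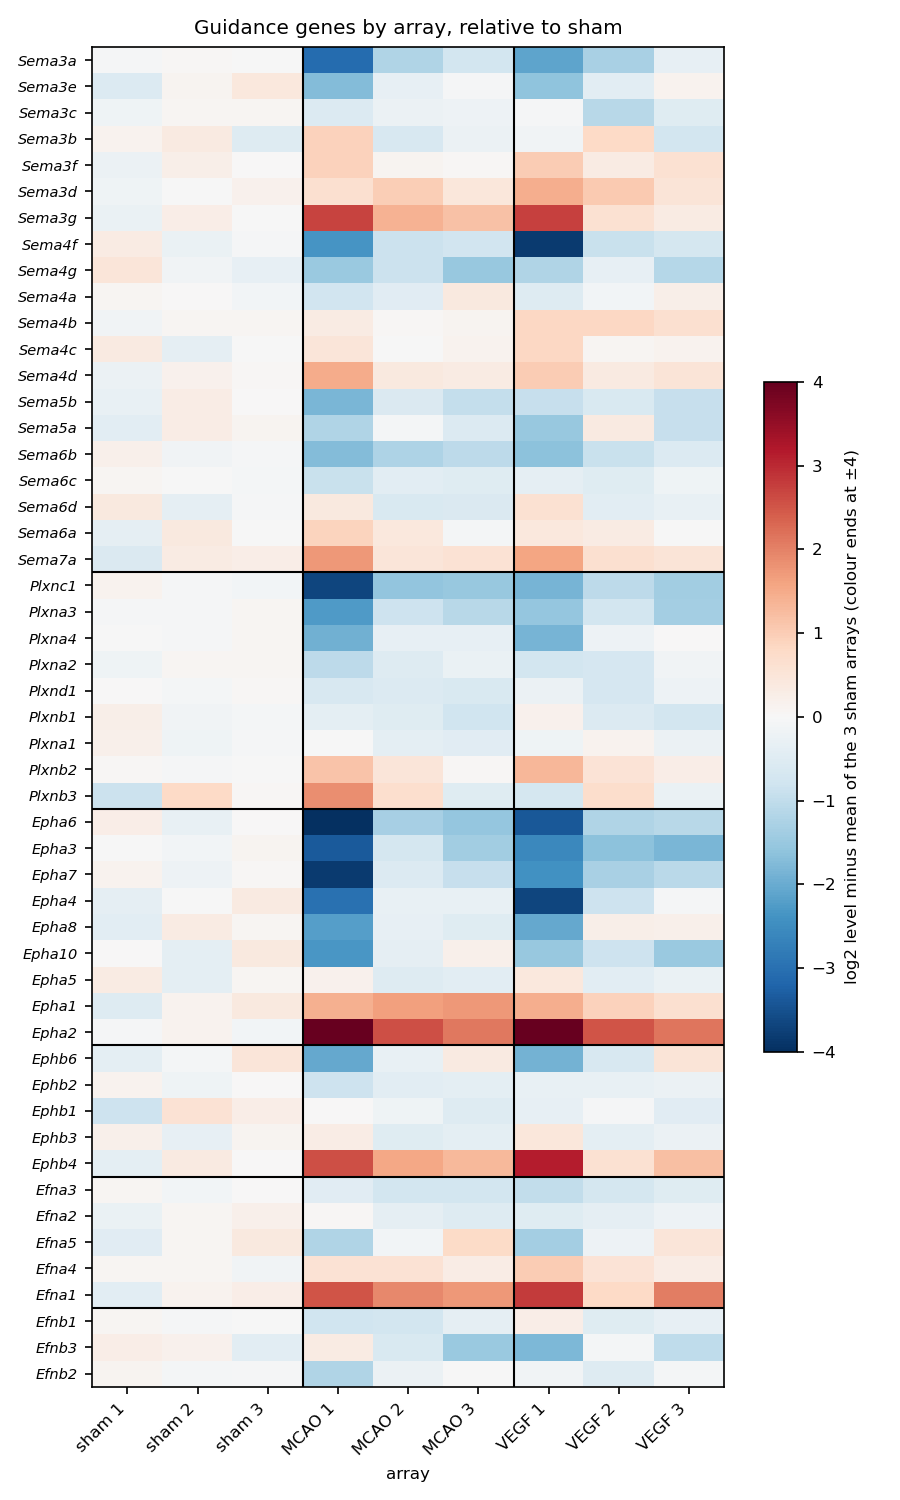
Log2 level of each of the 51 members (lines, by family) on each of the 9 arrays (columns), minus the mean of the 3 sham arrays; blue is lower, red is higher, and colours end at 4 log2 units either way. The deepest colours lie on MCAO array 1 and VEGF array 1, where Epha2 was 4.25 and 5.13 above the sham mean and Epha6 was at -4.31 and -3.41.

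MCAO array 1 and VEGF array 1 were often at the end of the ischaemic values. In 18 of 51 members (35.3%) both lay below the other 4 ischaemic arrays, where 22.2% of all genes did. In 13 members (25.5%) both lay above, where 33.3% of all genes did. The members below were Epha3, Epha4, Epha6, Epha7, Epha8, Epha10 and Ephb6, the plexins Plxna2, Plxna3, Plxna4 and Plxnc1, the semaphorins Sema3a, Sema3e, Sema4a, Sema4f, Sema5a and Sema6b, and Efna5. Those above included Efna1, Epha2, Ephb4, Sema3g and Sema7a. The interquartile range of the members' differences from the sham mean was 2.39 and 2.29 log2 units on these arrays against 0.66 to 1.05 on the other 4. Whether the shift in neuron and vessel markers on the same pair has a part in these values was not tested.

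Without that pair, 17 members passed in MCAO against sham. Efna1, Epha1, Epha2, Ephb4 and Sema3g rose (5 of 51, 9.8%), where 9.79% of all genes rose. Efna3, Efnb1, Epha3, Epha6, Epha7, Plxna3, Plxnb1, Plxnc1, Plxnd1, Sema4f, Sema5b and Sema6b fell (12 of 51, 23.5%), where 13.0% of all genes fell. In VEGF against sham Efna1, Epha2 and Sema4b rose (3 of 51), where 8.76% of all genes rose. Efna3, Epha3, Epha6, Epha7, Plxna3, Plxnc1, Sema3c, Sema4f and Sema6b fell (9 of 51, 17.6%), where 11.3% of all genes fell. For Sema3c a second probe was tested with all arrays only. It gave -0.22 (standard error 0.35) in VEGF against sham, where the probe used gave -0.54 (0.28). With 7 arrays left, each ischaemic group rests on 2 animals. The pair was left out with these data known to set it apart, so smaller standard errors follow in part from that choice. Values given without the pair, here and below, therefore describe the other arrays and are no independent support for a change. Neuron markers moved the same way: 5 of 13 (Syp, Tubb3, Map2, Nefl and Stmn2) also fell in MCAO against sham without the pair, and their part in the members' falls was not tested.

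**Figure D2:**
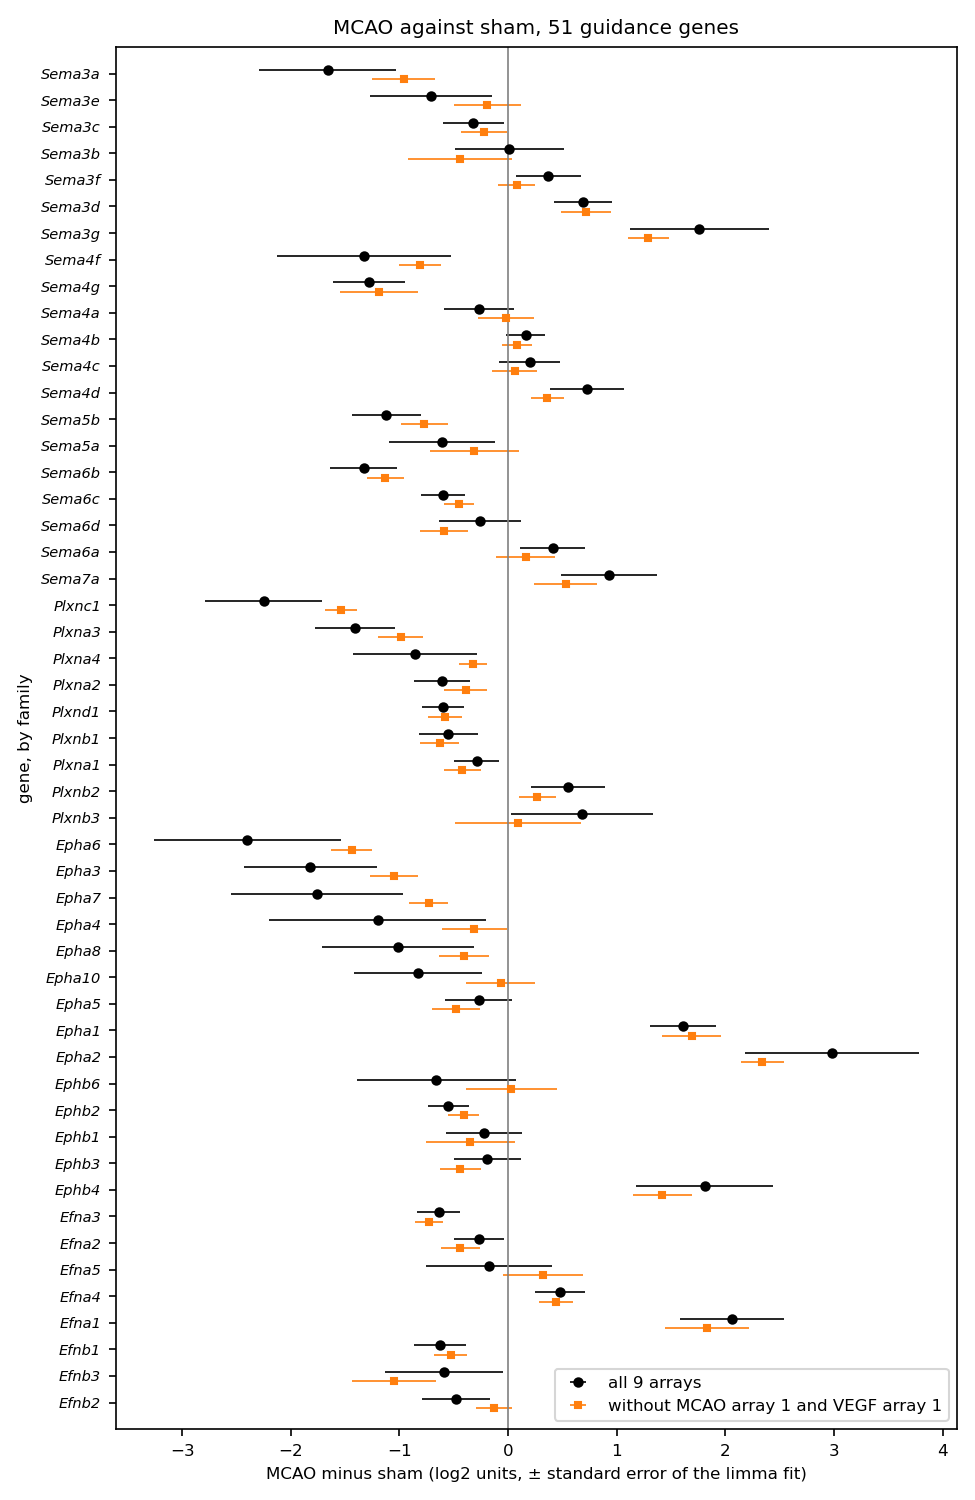
MCAO minus sham difference in log2 units (horizontal axis) for the 51 members by family, with the standard error of the limma fit, from all 9 arrays (black circles) and without MCAO array 1 and VEGF array 1 (orange squares). Without the pair Epha2 moved from 2.98 to 2.34 and Epha6 from -2.40 to -1.44, and the standard errors of both became narrower, from 0.80 to 0.20 and from 0.86 to 0.19.

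Among the secreted class 3 semaphorins, 4 of 7 lay above sham and 3 below in MCAO, with a median of 0.01 and none passing. Sema3g, a semaphorin known from vessels, read -5.02, -4.50 and -4.78 on sham arrays 1 to 3, then -2.05, -3.38 and -3.58 in MCAO and -2.03, -4.15 and -4.44 in VEGF. All 6 ischaemic arrays lay above every sham array, with MCAO array 1 and VEGF array 1 far above the rest and VEGF array 3 just clear of sham. The difference was 1.76 ± 0.64 (standard error of the fit, as for every ± below, n = 3 arrays per group) in MCAO against sham, with an adjusted p of 0.175 by limma, and 1.23 ± 0.64 (0.271) in VEGF against sham. Without the pair the MCAO difference was 1.29 ± 0.19 (adjusted p 0.00806) and the VEGF difference 0.47 ± 0.19 (0.133).

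Sema3a, the classical repellent of growing axons, read 0.69, 0.78 and 0.73 in sham, -2.34, -0.46 and 0.00 in MCAO and -1.38, -0.55 and 0.40 in VEGF. Every ischaemic array was below every sham array, and the sham arrays spread over only 0.09. The differences were -1.66 ± 0.63 (adjusted p 0.183) and -1.24 ± 0.63 (0.257), and -0.96 ± 0.29 (0.0581) and -0.81 ± 0.29 (0.0968) without the pair. A second Sema3a probe gave -0.67 ± 0.20 (0.118) and -0.73 ± 0.20 (0.1).

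Sema3d, a secreted semaphorin of vascular and neural development, read -4.10, -3.94 and -3.76 in sham, -3.29, -2.95 and -3.48 in MCAO and -2.48, -2.90 and -3.42 in VEGF. The ischaemic arrays were all higher than sham, by 0.69 ± 0.27 (adjusted p 0.198) in MCAO and 1.00 ± 0.27 (0.0972) in VEGF, and neither difference passed. Sema3e, which signals through plexin D1 without a neuropilin and is known in vessel patterning, read -1.07, -0.41 and -0.11 in sham, -2.28, -0.86 and -0.58 in MCAO and -2.15, -0.96 and -0.40 in VEGF. Its sham arrays spread over 0.96 and overlapped both ischaemic groups. Its differences of -0.71 ± 0.56 (adjusted p 0.473) and -0.64 ± 0.56 (0.483) shrank to -0.19 and -0.15 without the pair.

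The membrane-bound semaphorins of classes 4 to 7 lay below sham in 8 of 13 members in MCAO, with a median of -0.27. Sema6b, a transmembrane ligand of class A plexins, read 2.76, 2.43 and 2.52 in sham, 0.84, 1.33 and 1.53 in MCAO and 0.92, 1.69 and 2.02 in VEGF. All ischaemic arrays were lower than all sham arrays. It differed by -1.33 ± 0.31 (adjusted p 0.0643) in MCAO and -1.02 ± 0.31 (0.122) in VEGF, and by -1.13 ± 0.17 (0.00786) and -0.71 ± 0.17 (0.0333) without the pair.

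Sema4f, a transmembrane semaphorin found at synapses, read 1.73, 1.15 and 1.37 in sham, -0.95, 0.57 and 0.64 in MCAO and -2.40, 0.54 and 0.70 in VEGF. VEGF array 1 and MCAO array 1 lay more than 1 log2 unit below the other ischaemic arrays, which in turn lay below sham. The differences were -1.33 ± 0.80 (adjusted p 0.357) and -1.80 ± 0.80 (0.219) with all arrays, and -0.81 ± 0.19 (0.0284) and -0.79 ± 0.19 (0.0338) without the pair. Sema4g and Sema5b were next, at -1.28 ± 0.33 (0.0817) and -1.12 ± 0.32 (0.108) in MCAO. A second, dimmer Sema5b probe passed when probes were tested one by one, at -1.57 ± 0.26 (0.0229) in MCAO, and was at -1.27 ± 0.26 (0.0525) in VEGF, so whether Sema5b passed depended on the probe.

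Sema7a, a lipid-anchored semaphorin also active in immune cells, read 3.33, 4.26 and 4.18 in sham, 5.66, 4.40 and 4.50 in MCAO and 5.51, 4.57 and 4.43 in VEGF. The ischaemic arrays were all above sham, with a gap of 0.14 between the lowest of them and the highest sham array. Its differences of 0.93 ± 0.44 (adjusted p 0.263) and 0.91 ± 0.44 (0.245) did not pass and were 0.53 and 0.58 without the pair. Sema6d, a ligand of class A plexins, had a difference of -0.26 ± 0.38 in MCAO by its brighter probe and 0.28 ± 0.43 by the other, so its direction depended on the probe.

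Among the ephrin-A ligands Efna1, a ligand of EphA receptors that is prominent in endothelium and induced by inflammatory cytokines, read -1.24, -0.70 and -0.56 in sham, 1.67, 1.09 and 0.90 in MCAO and 1.96, -0.05 and 1.22 in VEGF. All 6 ischaemic arrays lay above sham, VEGF array 2 by the smallest margin. The difference was 2.06 ± 0.48 in MCAO (4.16-fold, adjusted p 0.0643) and 1.88 ± 0.48 in VEGF (3.68-fold, 0.0862), and neither passed. Without the pair it was 1.83 ± 0.39 (0.0217) and 1.42 ± 0.39 (0.0488).

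The other ephrin-A ligands moved less. Efna3 differed by -0.64 ± 0.20 (adjusted p 0.128) and -0.73 ± 0.20 (0.0971), with no overlap between the ischaemic arrays (-0.91 to -0.36) and sham (-0.01 to 0.18). Efna4 was at 0.48 ± 0.23 (0.259) and 0.62 ± 0.23 (0.164), and Efna2 and Efna5 were within 0.35 of sham in both groups.

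All 3 ephrin-B ligands lay below sham in MCAO, by -0.63 to -0.48, and none passed. Efnb1 read 2.09, 1.95 and 1.99 in sham, 1.20, 1.29 and 1.66 in MCAO and 2.28, 1.53 and 1.67 in VEGF. The MCAO arrays were all below sham, whereas VEGF array 1 was the highest of the 9. The differences were -0.63 ± 0.24 (adjusted p 0.191) and -0.18 ± 0.24 (0.641).

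Efnb2, the ephrin that marks arteries and pairs with EphB4 of veins, read 1.70, 1.50 and 1.54 in sham, 0.38, 1.36 and 1.56 in MCAO and 1.45, 1.07 and 1.51 in VEGF. MCAO array 1 was the lowest and VEGF array 2 lay below the sham range by more than the width of that range, while the remaining ischaemic arrays lay within or just below the sham range. It differed by -0.48 ± 0.31 (adjusted p 0.38) in MCAO and by -0.24 ± 0.31 (0.632) in VEGF.

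Plexins, the semaphorin receptors, were below sham in 7 of 9 members in MCAO and in 8 of 9 in VEGF, with medians of -0.60 and -0.37. In MCAO 6 of the 9 (66.7%) had all arrays below all sham arrays, where 20.7% of all genes did, and none had all above, where 19.6% did. None passed with all 9 arrays, while Plxna3, Plxnb1, Plxnc1 and Plxnd1 (4 of 9, 44.4%) fell in MCAO without the pair, where 13.0% of all genes fell.

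Plxnc1, the receptor of Sema7a, was read by a pair of probes. The brighter probe, used throughout, read 2.53, 2.34 and 2.28 in sham, -1.30, 0.81 and 0.87 in MCAO and 0.51, 1.33 and 0.98 in VEGF. All ischaemic arrays were at least 0.95 below the lowest sham array, and MCAO array 1 was the lowest by far. The differences were -2.25 ± 0.54 (4.77-fold lower, adjusted p 0.0681) in MCAO and -1.44 ± 0.54 (0.17) in VEGF, and -1.54 ± 0.15 (0.00245) and -1.23 ± 0.15 (0.0062) without the pair. On this probe the deposited processed signal and the signal recomputed from the background-subtracted one differed by at most 0.01 log2 units on every array.

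The dimmer Plxnc1 probe did not behave so. Its deposited levels were -1.30, -2.10 and -1.71 in sham, -4.39, -4.98 and -4.86 in MCAO and -2.26, -2.30 and -3.04 in VEGF. Recomputed from the background-subtracted signal, the MCAO levels were -3.79, -3.30 and -3.26, which is 1.52, 3.21 and 3.03 times the deposited signal, while the other 6 arrays differed by at most 0.01. The mismatch was therefore confined, for this probe, to the MCAO group. Tested probe by probe, the deposited values gave -3.04 ± 0.31 in MCAO against sham (adjusted p 0.00267) and the recomputed values -1.75 ± 0.31 (0.0261). In VEGF against MCAO the deposited difference of 2.21 ± 0.31 (0.365) became 0.91 ± 0.31 (1.0), so more than 1 log2 unit of it lay in that step. Of 55681 non-control probes, 12 had a mismatch of more than 0.5 log2 units on any array, and what set them apart was not tested. Both probes were lower in MCAO than in sham either way, and the dimmer one passed the test either way.

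**Figure D3:**
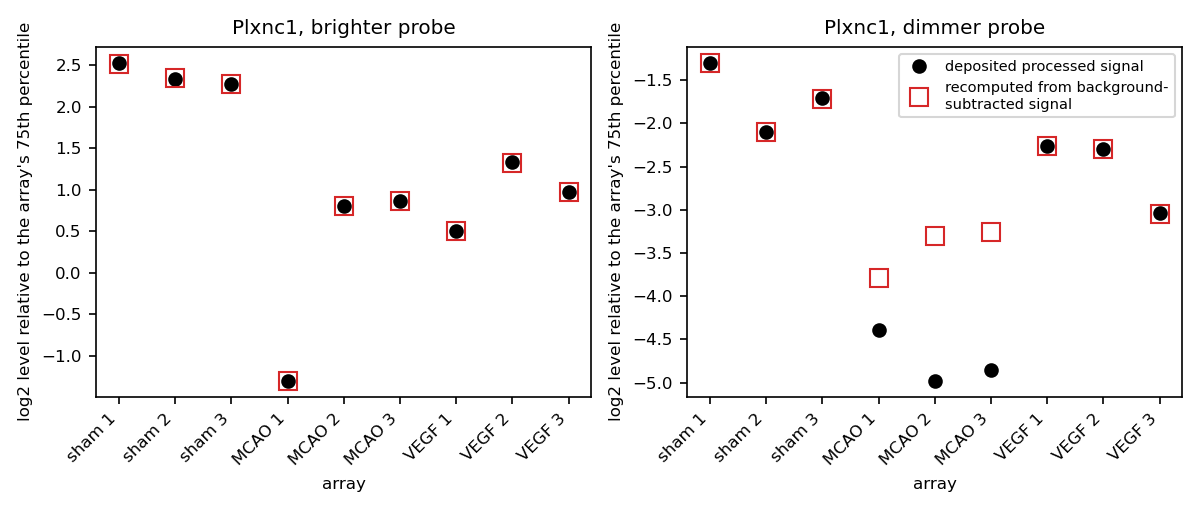
Level of Plxnc1 (log2, relative to the array's 75th percentile) on each of the 9 arrays by its brighter probe (left) and dimmer probe (right), from the deposited processed signal (black circles) and recomputed from the background-subtracted signal (red squares). The symbols coincide except for the dimmer probe on the 3 MCAO arrays, where the deposited values of -4.39, -4.98 and -4.86 lie under recomputed values of -3.79, -3.30 and -3.26.

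Plxna3, a class A plexin that transmits class 3 semaphorin signals together with neuropilins, read 0.95, 0.96 and 1.07 in sham, -1.27, 0.15 and -0.13 in MCAO and -0.54, 0.27 and -0.36 in VEGF. Every ischaemic array was lower than every sham array. The differences were -1.41 ± 0.37 (adjusted p 0.0875) and -1.20 ± 0.37 (0.127), and -0.99 ± 0.21 (0.0212) and -1.04 ± 0.21 (0.0219) without the pair.

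Plxnd1, the Sema3e receptor that is best known from endothelium, read 3.70, 3.60 and 3.74 in sham, 3.05, 3.13 and 3.06 in MCAO and 3.46, 3.00 and 3.47 in VEGF. It was lower on all ischaemic arrays, whereas 8 of 11 endothelial markers lay above sham in MCAO. None of those 8 passed by limma with all 9 arrays. The 1 endothelial marker that passed, Slco1a4, was lower in MCAO (-1.59 ± 0.25, adjusted p 0.015). The Plxnd1 differences were -0.60 ± 0.19 (adjusted p 0.13) and -0.37 ± 0.19 (0.257). Without the pair the MCAO difference was -0.58 ± 0.16 and passed narrowly (0.0486). Plxnb2 and Plxnb3 were the only plexins above sham in MCAO, at 0.55 ± 0.34 and 0.68 ± 0.65, and neither passed (adjusted p 0.372 and 0.56).

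EphA receptors split most widely of the families, with 7 of 9 below sham in both ischaemic groups and the other members, Epha1 and Epha2, above it. Epha2, an EphA receptor of epithelia and activated vessels that binds ephrin-A1, read -2.91, -2.72 and -2.97 in sham, 1.38, -0.29 and -0.76 in MCAO and 2.26, -0.36 and -0.74 in VEGF. All 6 ischaemic arrays lay at least 1.96 above the highest sham array, with the pair higher still. The differences were 2.98 ± 0.80 (7.89-fold, adjusted p 0.0913) in MCAO and 3.25 ± 0.80 (9.54-fold, 0.0793) in VEGF, and neither passed. Without the pair they were 2.34 ± 0.20 (0.00156) and 2.32 ± 0.20 (0.00198).

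Epha1 was the member that rose with all 9 arrays. It read -6.44, -5.77 and -5.53 in sham, -4.48, -4.27 and -4.17 in MCAO and -4.47, -5.00 and -5.28 in VEGF. By group means (-5.91, -4.31 and -4.92) its probe was the dimmest of those used for the members, though well above background on all 9 arrays. Whether the low signal has a part in the difference was not tested. The MCAO arrays lay close together above all others except VEGF array 1, and the VEGF arrays lay between them and sham. The MCAO difference was 1.61 ± 0.30 (3.05-fold, adjusted p 0.0284) and the VEGF difference 0.99 ± 0.30 (0.118). The call was lost without MCAO array 2 (1.59, 0.0877), MCAO array 3 (1.54, 0.0946) or any sham array (1.34 to 1.80, 0.0663 to 0.11), with the replicate number as a block (1.61, 0.0501), and with normexp background correction, where the difference was 0.62 (0.185).

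Epha6, a neuronal EphA receptor, read 0.19, -0.37 and -0.08 in sham, -4.39, -1.40 and -1.64 in MCAO and -3.49, -1.28 and -1.20 in VEGF. All ischaemic arrays were lower, the pair by more than 3 log2 units from the sham mean and the others by 1.12 to 1.56. The differences were -2.40 ± 0.86 (adjusted p 0.169) and -1.91 ± 0.86 (0.221), and -1.44 ± 0.19 (0.00552) and -1.16 ± 0.19 (0.0126) without the pair.

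Epha3, an EphA receptor with a known role in guiding forebrain axons, read -1.22, -1.32 and -1.09 in sham, -4.58, -1.90 and -2.61 in MCAO and -3.80, -2.86 and -3.04 in VEGF. All ischaemic arrays were lower than sham, and the VEGF arrays other than VEGF array 1 lay below both MCAO arrays outside the pair. The differences were -1.82 ± 0.61 (adjusted p 0.147) and -2.02 ± 0.61 (0.119), and -1.05 ± 0.22 (0.0216) and -1.74 ± 0.22 (0.00654) without the pair.

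Epha7, a receptor of cortical map formation, read 1.17, 0.82 and 1.06 in sham, -2.82, 0.48 and 0.11 in MCAO and -1.42, -0.28 and -0.06 in VEGF. All ischaemic arrays were lower, with MCAO array 1 lowest. The differences were -1.76 ± 0.79 (adjusted p 0.243) and -1.60 ± 0.79 (0.251), and -0.73 ± 0.18 (0.0332) and -1.19 ± 0.18 (0.0102) without the pair. The other Epha7 probes gave -1.85 ± 0.98 and -0.83 ± 0.79 in MCAO, so the direction held for all 3 probes and the size did not.

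Epha10, a receptor whose kinase domain is thought to be inactive, read -1.44, -1.84 and -1.05 in sham, -3.78, -1.80 and -1.23 in MCAO and -2.95, -2.26 and -2.94 in VEGF. Only the VEGF arrays were all below sham, and MCAO arrays 2 and 3 lay inside the sham range. The differences were -0.83 ± 0.59 (adjusted p 0.434) and -1.27 ± 0.59 (0.233). Epha4 and Epha8 were lowest on the pair. Epha4 stood there at -2.99 and -3.69 from the sham mean, against -0.85 to -0.04 on the other 4 ischaemic arrays. Epha8 stood at -2.20 and -2.05 on the pair, against -0.50 to 0.24.

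Of the EphB receptors, 4 of 5 lay below sham in MCAO and Ephb4 above. Ephb4, the receptor that marks veins and binds ephrin-B2, read -3.01, -2.28 and -2.61 in sham, -0.05, -1.10 and -1.33 in MCAO and 0.51, -2.01 and -1.43 in VEGF. All ischaemic arrays lay above sham, with the pair highest and VEGF array 2 only 0.27 above the highest sham array. The differences were 1.81 ± 0.63 (3.50-fold, adjusted p 0.159) and 1.66 ± 0.63 (0.171), and without the pair 1.42 ± 0.27 (0.0154) and 0.91 ± 0.27 (0.0581). A second Ephb4 probe gave 0.72 ± 0.50 (0.426) and 0.69 ± 0.50 (0.398).

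Ephb2, a receptor of synapses and axon tracts, read -0.11, -0.43 and -0.23 in sham, -1.08, -0.69 and -0.65 in MCAO and -0.56, -0.56 and -0.49 in VEGF. Its groups did not overlap in any comparison, with VEGF between sham and MCAO. The MCAO difference was -0.55 ± 0.19 (adjusted p 0.159) and the VEGF difference -0.28 ± 0.19 (0.373).

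**Figure D4:**
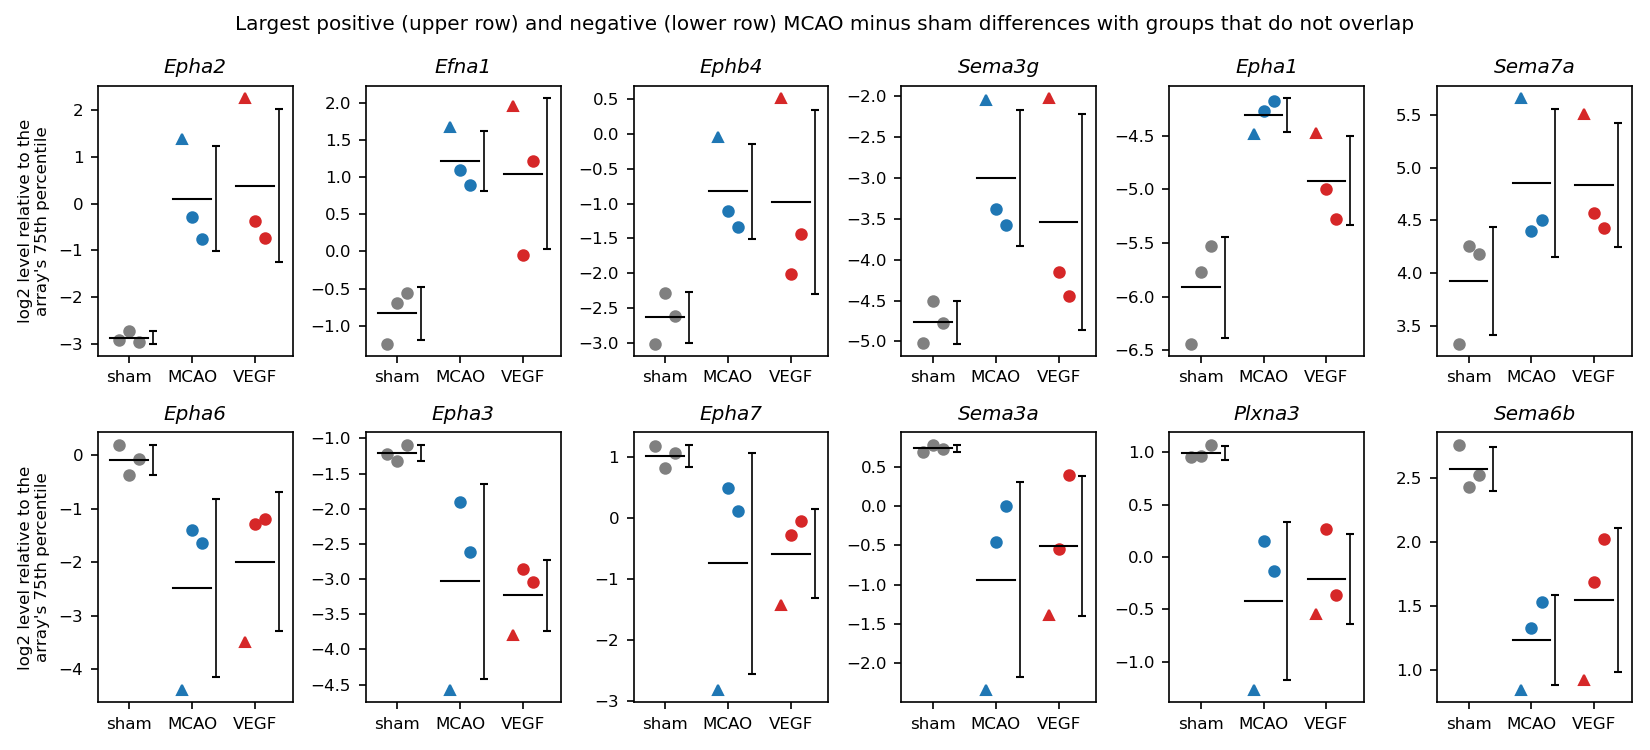
Log2 level relative to the array's 75th percentile for 12 members on the 3 arrays of each group (points, with triangles for MCAO array 1 and VEGF array 1; lines are group means and bars the SD, n = 3). The upper panels show the 6 largest positive and the lower panels the 6 largest negative MCAO minus sham differences whose groups did not overlap; triangles lie outermost in most panels, as for Epha2 at 1.38 and 2.26 and Epha6 at -4.39 and -3.49.

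The comparison of VEGF with MCAO asks whether the injected growth factor changed the guidance genes after the same occlusion. No member passed limma's adjusted test, where 2 genes in all (0.00649%) did, and 1 member (1.96%) had an unadjusted p under 0.05, against 2.78% of all genes. Differences ran from -0.77 for Plxnb3 to 0.81 for Plxnc1 with a median of 0.14, against -0.02 over all genes. All VEGF arrays lay above all MCAO arrays for 2 members, Sema4b and Ephb2 (3.92%), where 2.33% of all genes did, and below for 0 members, where 3.48% of all genes did. Same-numbered MCAO and VEGF arrays were taken as pairs after seeing the data, and no label says that a number marks a shared experiment. Deviations of these pairs from the group means correlated at 0.587, 0.224 and 0.558. Differently numbered arrays reached 0.392 (MCAO array 2 with VEGF array 3) and 0.234 (MCAO array 3 with VEGF array 2), so the pairing is an assumption. VEGF was higher in all 3 pairs for 15 members (29.4%), where 13.9% of all genes were, and lower in all 3 for 1 member (1.96%), Efna5, where 13.6% were.

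Markers of some cell types lay to 1 side between these groups, in either direction. The 8 astrocyte markers were all higher in VEGF than in MCAO (median 0.25), as were the 7 of pericytes and smooth muscle (median 0.22). The 5 choroid plexus and ependyma markers were all lower in VEGF than in MCAO (median -1.39, Ttr lowest at -5.15). Their median relative to sham was 2.12, -0.73 and -0.17 for MCAO arrays 1 to 3, against -3.10, 1.23 and -3.68 for VEGF arrays 1 to 3. The 8 oligodendrocyte markers were all lower too (median -0.62), at 1.81, 0.91 and 0.40 in MCAO, against 0.28, 0.73 and 0.48 in VEGF. Without MCAO array 1 and VEGF array 1 the median differences were 0.03 for choroid plexus and ependyma and -0.04 for oligodendrocytes. For astrocytes and for pericytes and smooth muscle they were -0.08 and -0.16. Ttr and Folr1 were still lower in that fit (-3.04 ± 2.62 and -1.15 ± 1.87), while the other 3 choroid plexus and ependyma markers lay at 0.03 to 0.19. None of these markers passed, all were well above background on every array, and their part in the members' values was not tested.

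Sema4b, a transmembrane class 4 semaphorin, read 0.41, 0.12 and 0.20 in MCAO and 0.93, 0.90 and 0.72 in VEGF, with -0.06, 0.17 and 0.15 in sham. The VEGF arrays were higher than all other arrays, whereas MCAO and sham overlapped. It differed by 0.60 ± 0.18 (1.52-fold, 95% interval 0.20 to 1.00) between VEGF and MCAO, at an unadjusted p of 0.00812 and an adjusted p of 1.0 by limma, and in 21 alternatives of the processing the difference stayed between 0.54 and 0.69 without passing. Against sham it was 0.76 ± 0.18 higher in VEGF (adjusted p 0.0661), and 0.72 ± 0.14 (0.0183) without the pair.

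After Sema4b the lowest unadjusted p-values were those of Epha1, Efnb1, Plxnc1 (0.81 ± 0.54, p 0.168) and Ephb2; Plxnc1 is described above because its other probe had a signal mismatch. Epha1 was lower with VEGF by -0.61 ± 0.30 (95% interval -1.29 to 0.07, unadjusted p 0.0715), with VEGF array 1 among the MCAO values. Efnb1 was at 0.44 ± 0.24 (-0.11 to 0.99, 0.101), and at 0.12 without the pair. Ephb2 was at 0.27 ± 0.19 (-0.16 to 0.70, 0.189).

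The 95% interval of the VEGF minus MCAO difference stayed within 1 log2 unit (2-fold) of 0 for 22 of 51 members, and reached 1 log2 unit or more for the other 29. The half-width of the interval was 0.79 log2 units at the median, and ranged from 0.40 to 2.28. With the pairs as a block, within the MCAO and VEGF arrays only, the intervals of 32 members stayed within 1 log2 unit and those of 19 reached it, with a median half-width of 0.55, and again no member passed. For Epha2 the interval was -1.56 to 2.11 without the block and -0.42 to 0.97 with it, and its 3 pairs differed by 0.87, -0.07 and 0.02. For Plxnc1 it was -0.42 to 2.05 and -0.24 to 1.87, and the pairs differed by 1.81, 0.51 and 0.12. The pairs of Sema4b differed by 0.52, 0.77 and 0.51. A lack of difference was not shown for the 29 members whose interval reached 1 log2 unit without the block, Epha2 and Plxnc1 among them. For the other 22 a difference of less than 2-fold stays possible.

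**Figure D5:**
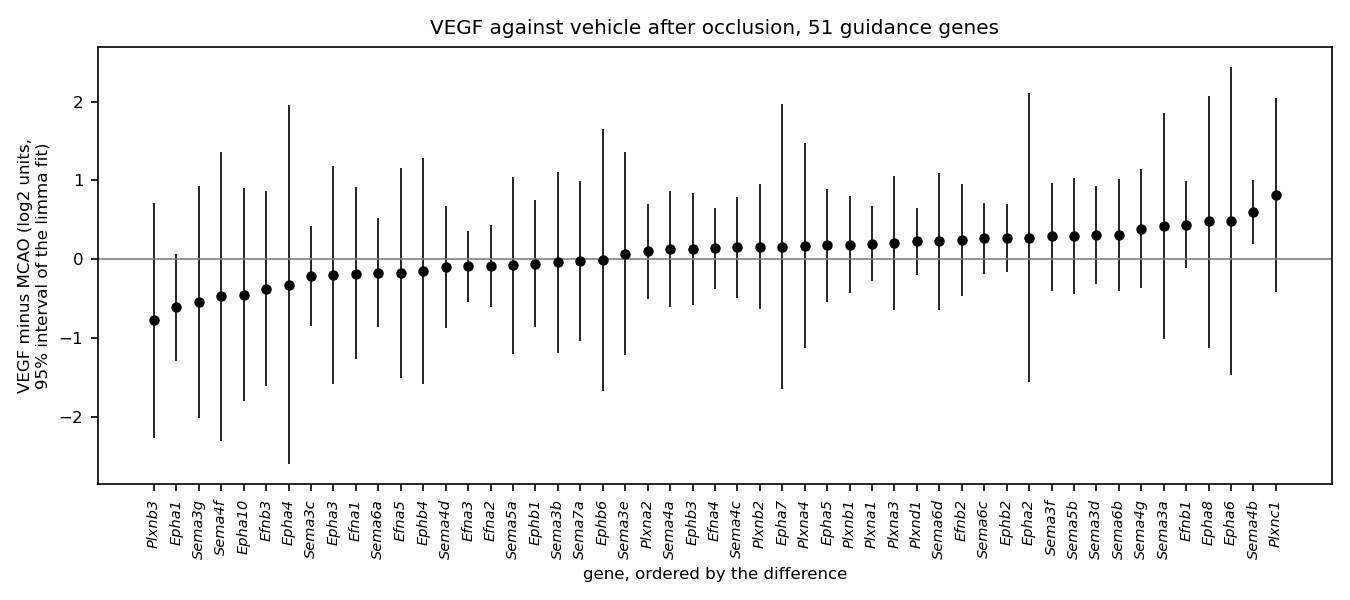
VEGF minus MCAO difference in log2 units (vertical axis, with the 95% interval of the limma fit, n = 3 arrays per group) for the 51 members, ordered by the difference. The interval excludes 0 for Sema4b (0.20 to 1.00), and 29 intervals reach 1 log2 unit or more on either side.

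Neuropilins, the shared co-receptors of class 3 semaphorins and VEGF-A, did not pass in any comparison. Nrp1 read -1.79, -1.62 and -1.63 in sham, -2.41, -1.25 and -2.10 in MCAO and -1.80, -1.70 and -1.76 in VEGF, with overlapping groups and differences from sham of -0.24 ± 0.28 (adjusted p 0.635) and -0.08 ± 0.28 (0.88). Nrp2 read 2.96, 2.81 and 2.35 in sham, 2.74, 2.53 and 2.31 in MCAO and 3.24, 2.94 and 1.92 in VEGF, also overlapping, at -0.18 ± 0.35 (0.778) and -0.01 ± 0.35 (0.986). The sign of these small values changed under several alternatives.

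Of the 44 co-receptors and signalling partners listed, all were measured and none passed in any of the 3 comparisons with all arrays, where 2.81%, 2.43% and 0.00649% of all genes did. At an unadjusted p under 0.05 there were 8 in MCAO against sham (18.2%, against 21.4% of all genes), 9 in VEGF against sham (20.5%, against 23.5%) and 0 in VEGF against MCAO (against 2.78%). The median MCAO difference was -0.07. The partners with the lowest p-value in any of the 3 comparisons were Fes, L1cam, Crmp1, Inppl1, Rhod and Mical2.

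Fes, a tyrosine kinase that acts downstream of class A plexins, was 2.39 ± 0.57 higher in MCAO (adjusted p 0.0661), from -1.09 to -0.69 on the sham arrays to 0.97 to 2.54 on the MCAO arrays. Crmp1, a cytosolic mediator of semaphorin 3A signalling in neurons, was at -1.65 ± 0.44 (0.0881), from 4.40 to 4.66 in sham to 1.94 to 3.41 in MCAO. L1cam, the neuronal adhesion molecule that joins neuropilin-1, was at -1.61 ± 0.41 (0.0812). Inppl1, the lipid phosphatase SHIP2 that binds EphA2, was at 1.90 ± 0.52 (0.0946), Rhod, a small GTPase that binds plexins, at 1.04 ± 0.30 (0.107), and Mical2, of the flavoprotein monooxygenases downstream of plexins, at -0.79 ± 0.29 (0.172) in MCAO and -0.96 ± 0.29 (0.116) in VEGF, where its p was lowest. Without the pair Fes, Inppl1, Rhod and Rras rose and Crmp1, L1cam, Mical2 and Tiam1 fell in MCAO (4 of 44 each way, 9.09%, where 9.79% and 13.0% of all genes did).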

How the data were processed

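Scanner files of 9 1-colour Agilent arrays (3 sham, 3 MCAO, 3 VEGF; different mice per experiment, per the labels) were used. The deposited processed intensity was made, per the file headers, with Feature Extraction 10.7.1.1, which subtracted background, divided by a spatial trend and put a surrogate in place of values near background. The deposited detrending factor, a ratio, was not applied to MCAO array 1, per the file headers. The authors also deposited a table that was taken as log2 values on a common scale (each column's median is 6.98, and correlations with log2 processed intensity were 0.998 to 1.0); its scale and method are not stated, and it served as an alternative.

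Levels are log2 processed intensity minus the array's 75th percentile. A probe was kept if every array of some group had it well above background (43921 of 55681). Symbols came from a RefSeq table (GRCm38.p6), for 26582 probes; for a gene with several probes the brightest was used, and no coordinates were taken from the array. Plxnc1 was also recomputed from the background-subtracted intensity. Groups were compared with limma 3.58.1 (R 4.3.3, statmod 1.5.0) in 1 fit of all 9 arrays without covariates. Moderated two-sided tests were used, with Benjamini-Hochberg adjustment over 30837 items (17589 with a gene symbol) at 0.05. The number of arrays limits the precision (8.48 degrees of freedom, median standard error 0.31). The fit was also run on simulated data, with independent noise of equal spread on all arrays. Arrays that deviate together, as MCAO array 1 and VEGF array 1 do, were not simulated. Python 3.11.15 and matplotlib 3.10.9 made summaries and figures.

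Array-by-array values are given for members that passed with all arrays, the 6 largest positive and negative differences per comparison with sham among groups that do not overlap and the 4 lowest p-values in VEGF against MCAO (members with a probe whose signals mismatch left out of both rankings), and Plxnc1, Sema3e, Plxnd1, Efnb2, Ephb4, Nrp1 and Nrp2. Members, lists, rules and alternatives, including leaving out MCAO array 1 with VEGF array 1, were chosen with earlier results of these data known. Deviations from the group means of same-numbered MCAO and VEGF arrays correlated at 0.587, 0.224 and 0.558. Of the differently numbered, MCAO array 2 with VEGF array 3 and MCAO array 3 with VEGF array 2 had 0.392 and 0.234. The other 4 combinations had -0.563 to -0.268. Taking the numbers as pairs in VEGF against MCAO is therefore an assumption, which these correlations do not settle. Same-numbered sham arrays had 0.0268, -0.107 and 0.151 with MCAO arrays and -0.0322, 0.135 and 0.112 with VEGF arrays. Alternatives covered background correction, normalization, probe choice, filters, age, array weights, a replicate block and each array left out. The block within MCAO and VEGF arrays only, and the counts over pairs, were added after seeing the data.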

Additional observations from a re-analysis of the deposited data

How the results depend on the processing

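The number of members passing in MCAO against sham (1 with all arrays) was 5 with age as a covariate (where 5.17% of all genes passed), 23 with array weights (37.5%), 3 with the mean of a gene's probes (2.82%), 0 with normexp background correction (1.8%), 5 with only the groups compared (5.8%), 17 without MCAO array 1 and VEGF array 1 (22.8%), and 0 to 7 leaving out 1 array: 0 without MCAO array 2, MCAO array 3 or any sham array, 2 without MCAO array 1 or VEGF array 2, and 7 without VEGF array 1. In VEGF against sham (0) it was 17 with array weights (21.6% of all genes), 2 with only the groups compared (3.49%), 12 without the pair (20.0%), and 0 to 9 leaving out 1 array, with 9 when MCAO array 1 and 1 when VEGF array 2 was left out. With the replicate block 1 member passed in each comparison with sham (3.99% and 3.07% of all genes), Epha2 (adjusted p 0.0435 and 0.038), while Epha1 no longer did (0.0501). The block, also within the MCAO and VEGF arrays only, an alternative chosen after seeing the data, left VEGF against MCAO at 0. In VEGF against MCAO 0 members passed under every alternative run.

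The sign was kept in all 21 alternatives by 45 of 51 members for MCAO and 41 for VEGF against sham, but in all 22 by only 13 in VEGF against MCAO. Nrp1 turned to 0.04 with array weights and to 0.00 without MCAO array 1 or without the pair (MCAO against sham; -0.58 to 0.00 over single arrays left out), and to 0.05 with normexp (VEGF against sham). Nrp2 turned to 0.38, 0.12 and 0.04 without VEGF array 3, sham array 1 and sham array 2 (VEGF against sham; -0.28 to 0.38 over single arrays left out). Normexp moved the median of all genes in VEGF against sham from -0.12 to 0.02. The cause was not tested in any of these cases. Array weights used limma's gene-by-gene method because the default did not converge. The weights were 0.11 for MCAO array 1 and 0.15 for VEGF array 1, against 0.8 to 3.22 for the other arrays. That alternative is therefore close to leaving out the pair and is no separate support. Groups of 3 arrays, 1 slide per surgery and an unstated brain part limit all comparisons with sham. So does the injection, which the labels name only for the ischaemic groups.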

Other observations

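Guidance families other than semaphorins and ephrins were measured for 29 of 30 listed genes. In MCAO against sham 21 of 29 lay below 0, with a median of -0.80 against -0.04 over all genes, and none passed limma's adjusted test. At an unadjusted p under 0.05 there were 10 (34.5%), against 21.4% of all genes. The secreted repellent Slit1 read 3.37, 3.06 and 3.50 in sham and 0.18, 2.13 and 1.88 in MCAO, a difference of -1.92 ± 0.64 (adjusted p 0.15). Without MCAO array 1 and VEGF array 1 Slit1, Slit2 and Slit3 fell in MCAO against sham (-1.31, -0.98 and -1.03), as did the Slit receptors Robo1 and Robo2 (-0.69 each), the membrane-anchored netrin-G2 gene Ntng2 (-0.63) and the netrin receptor Unc5d (-1.06). Robo4, the Robo of endothelium, rose in the same fit by 1.61 ± 0.14 (adjusted p 0.00173), as Rgmb did by 0.80 ± 0.14 (0.0127). In that fit 9.79% of all genes rose and 13.0% fell. Of 13 neuron markers 5 fell, and of 11 endothelial markers 4 rose and 1 (Slco1a4) fell. The part of these markers in the values was not tested.

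Rgmb, a repulsive guidance molecule that is also a co-receptor for bone morphogenetic proteins, was the member of that list that passed with all 9 arrays. It read -6.09, -6.16 and -6.02 in sham, -5.42, -5.31 and -5.27 in MCAO and -4.59, -4.89 and -5.22 in VEGF. Its sham levels were the lowest of that list, though its probe was well above background on all 9 arrays. Whether the low signal has a part in the difference was not tested. The VEGF arrays were all above the MCAO arrays, and these above sham. The VEGF minus sham difference was 1.19 ± 0.20 (adjusted p 0.0209), the MCAO minus sham difference 0.76 ± 0.20 (0.0875), and VEGF minus MCAO 0.43 ± 0.20 (1.0).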
